A study of Mus musculus with 6 samples.

Results

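Wnt pathway genes were followed in bulk RNA-seq of the proximal mouse incisor after loss of *Arid1b*. Members were taken by a rule on gene names, which used no measured value but was set with earlier results of these data known. They comprise every listed Wnt ligand, Frizzled receptor, Dickkopf, secreted Frizzled-related protein and R-spondin, together with named co-receptors, other receptors, secretion factors, antagonists, members of the β-catenin complex, TCF/LEF factors and feedback targets. This gave 58 of the 19270 genes in the deposited table, and each matched 1 gene of the GENCODE vM21 annotation on GRCm38, the assembly also called mm10. The samples came from 3 control and 3 mutant mice, taken 4 days after tamoxifen induction at an age of 1 month. The mutants carried *Gli1-CreER;Arid1bfl/fl*, in which tamoxifen activates a Cre recombinase made in *Gli1*-expressing cells, so that the floxed *Arid1b* alleles are lost in the GLI1+ lineage of both mesenchyme and epithelium. The controls received tamoxifen too and are labelled wild type, whereas the study's methods describe them as *Arid1bfl/fl* mice. The study dissected mesenchymal tissue, and the labels name the tissue only as incisor.

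Wnt ligands are secreted, lipid-modified proteins that bind Frizzled receptors. With the co-receptors LRP5 or LRP6 they stop the breakdown of β-catenin, which then works with TCF/LEF factors at target genes such as *Axin2*, *Lef1* and *Nkd1*. Other ligands, such as Wnt5a, mostly act through ROR and RYK receptors without β-catenin. R-spondins raise the number of Frizzled receptors at the cell surface by binding LGR receptors and removing the ubiquitin ligases ZNRF3 and RNF43. Dickkopf proteins such as Dkk1 block LRP5 and LRP6, and Sfrp and Wif1 proteins bind the ligands themselves. In teeth the pathway is known for its part in the growth of the dental epithelium and in the differentiation of odontoblasts.

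All values are the authors' group means of a normalized signal, which carry no spread between mice, so whether a difference exceeds that spread could not be tested. Differences are therefore given as the ratio of the mutant to the control mean, and a gene was counted as higher or lower when this ratio passed 1.5-fold and its mean over both groups was at least 1. The estimated depth was 39087724 to 39868312 reads in the control libraries and 37123643 to 49594469 in the mutant libraries. Counting intervals at 95% (exact, on estimated reads) cover counting error only. The targeted gene *Arid1b* had a control mean of 97.6 and a mutant mean of 38.0, a ratio of 0.390. *Ddx3y*, a Y-linked gene, had a mean of 65.3 in the mutants and stood at the lowest mean of the controls, 0.0259, and *Xist*, made from an inactive X chromosome, had control and mutant means of 3368 and 814. Sex is not among the labels, and sex and genotype cannot be told apart in these means. The 14 listed markers of dental mesenchyme had a summed control mean of 25174 and a summed mutant mean of 21080. *Col1a1* alone had control and mutant means of 21211 and 17127, so the difference between these sums was mostly that of *Col1a1*.

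Among the 57 members with a mean of at least 1, 12 were higher and 1 was lower in the mutants. Of all 14744 genes with such a mean, 4.14% were higher and 1.91% were lower, against 21.1% and 1.75% of the members. Without the filter, 7.37% and 5.8% of all genes passed, and the members past the fold were again 12 and 1, now of 58. The members had a median log2 ratio of 0.13, and all genes a median of 0.00498. Of the 12 members that were higher, 8 were Wnt ligands, 3 were secreted antagonists and the other was *Rnf43*. The lower member was *Rspo4*. Without the ligands, 4 of 44 members were higher (9.09%) and their median log2 ratio was 0.05. *Rspo3* was the only member under the filter, with control and mutant means of 0.276 and 0.227.

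**Figure D1:**
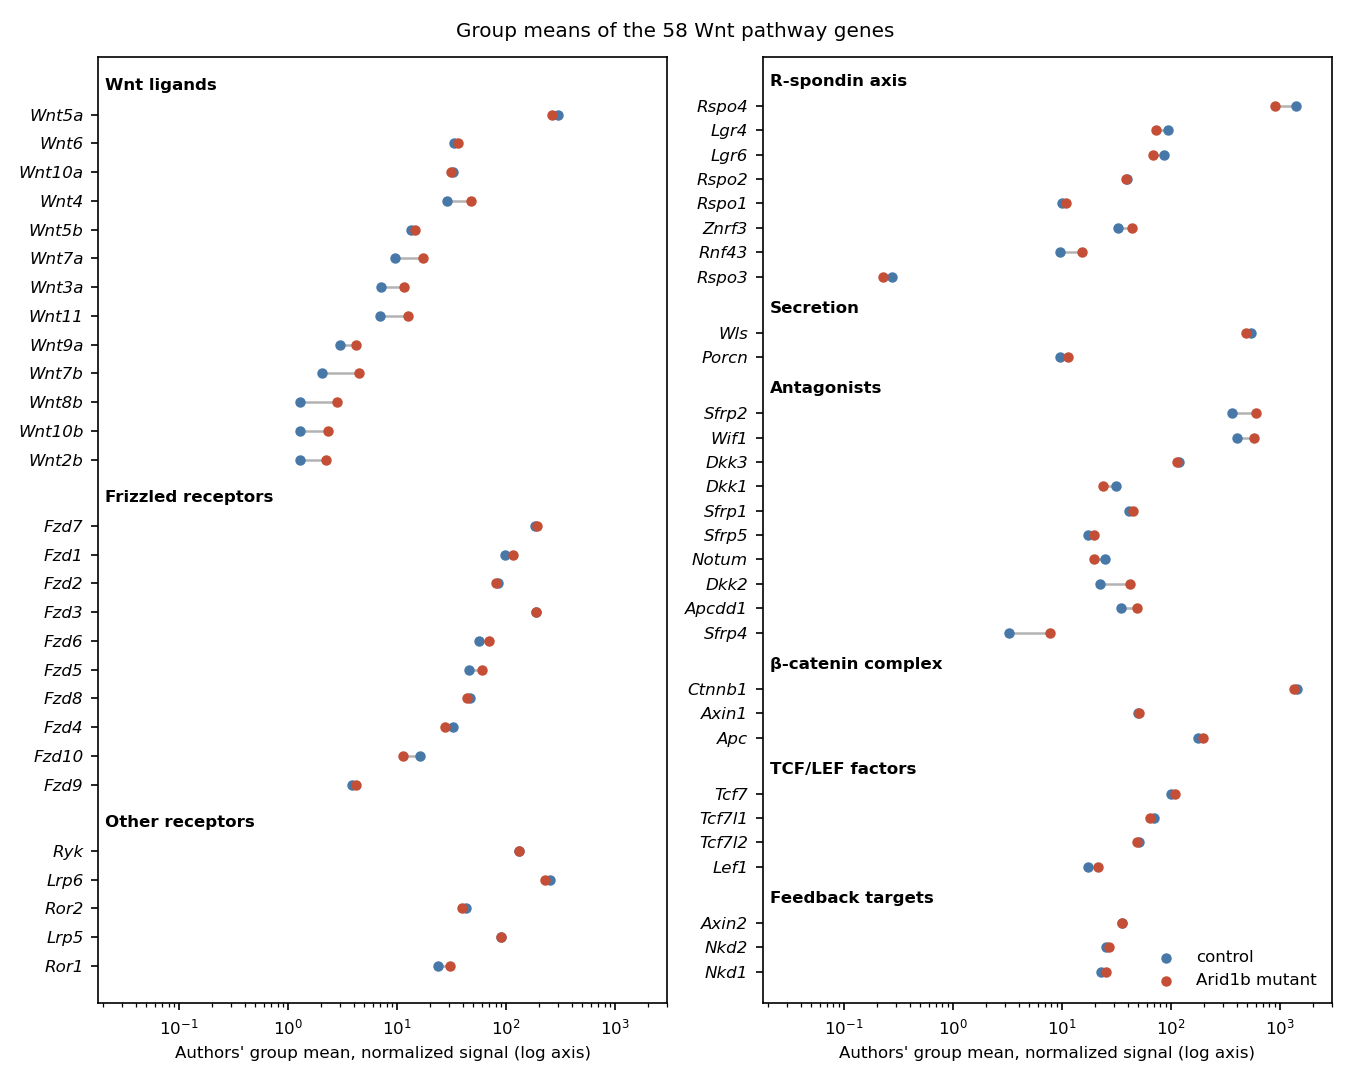
Authors' group mean of each of the 58 members, as normalized signal on a log axis, with controls in blue and mutants in red, ordered within each role by mean per kb of exon. The red point lies to the right of the blue one for 11 of 13 Wnt ligands, while the Frizzled receptors split 5 and 5.

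The Wnt ligands were the role with the most members past the fold, with 8 of 13 higher, none lower and a median log2 ratio of 0.74. These 8 were *Wnt4*, *Wnt7a*, *Wnt11*, *Wnt3a*, *Wnt7b*, *Wnt8b*, *Wnt10b* and *Wnt2b*. Most of them were weakly expressed, and weakly expressed genes passed the fold more often in general. Of all genes with a mean from 1 to 10, 8.75% were higher and 4.24% lower, against 6 and 0 of the 7 ligands in that range. With a mean from 10 to 100, 2.33% of all genes were higher and 1.02% lower, against 2 and 0 of 5 ligands. *Wnt5a* was the only ligand with a mean of 100 or more, where 1.46% of all genes were higher and 0.486% lower. These shares are descriptions, since genes are not replicates.

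*Wnt4*, which acts in the development of kidney and gonad and in many epithelia, lies on chromosome 4 from 137277489 to 137299726. Its mean was 28.3 in the controls and 47.5 in the mutants, a ratio of 1.67 with a counting interval of 1.61 to 1.75. It was the most strongly expressed of the 8 ligands by mean per kb of exon. *Wnt7a*, a ligand best known from the limb and from surface epithelia (chromosome 6, 91363981 to 91411363), had means of 9.49 and 17.3 and a ratio of 1.82. *Wnt3a*, a classical activator of β-catenin signaling, had means of 7.05 and 11.6 with a ratio of 1.65, and *Wnt11*, which mostly acts without β-catenin, had means of 6.91 and 12.4 with a ratio of 1.80. Ligands of both kinds were thus among those that were higher.

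The remaining ligands past the fold had control means of 1.27 to 2.04. *Wnt7b*, an epithelial ligand of many organs (chromosome 15, 85535437 to 85582473), had control and mutant means of 2.04 and 4.46, a ratio of 2.18. *Wnt8b*, known mainly from the forebrain, had means of 1.27 and 2.79 and a ratio of 2.19. For *Wnt10b*, a ligand of skin appendages and bone, the means were 1.29 and 2.31, and for *Wnt2b* they were 1.29 and 2.22. At this depth the counting intervals were 1.47 to 2.21 for *Wnt10b* and 1.41 to 2.13 for *Wnt2b*, so that both reach below 1.5, while neither reaches 1. The counting interval of *Wnt8b* was 1.82 to 2.70.

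The 3 ligands with the highest mean per kb of exon, *Wnt5a*, *Wnt6* and *Wnt10a*, did not pass the fold, nor did *Wnt5b* and *Wnt9a*. *Wnt5a*, the main ligand of the branch without β-catenin (chromosome 14, 28504750 to 28527448), had a control mean of 297 and a mutant mean of 261, a ratio of 0.879. *Wnt6* had means of 32.8 and 36.0, and *Wnt10a*, a ligand of tooth and hair, had means of 32.2 and 30.9. *Wnt5b* had a ratio of 1.10 and *Wnt9a* one of 1.41. The summed mean per kb over all 13 ligands was 87.3 in the controls and 95.9 in the mutants, a ratio of 1.10. *Wnt5a* made up 43.5% of that sum in the controls and 34.8% in the mutants. Without *Wnt5a* the ratio was 1.27. *Wnt4* made up 7.74% of the sum in the controls and 11.8% in the mutants.

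Some ligand genes are neighbours in the genome. *Wnt6* and *Wnt10a* lie 6.19 kb apart on the same strand of chromosome 1, and their log2 ratios were 0.13 and -0.06. *Wnt3a* and *Wnt9a* lie 16.2 kb apart on opposite strands of chromosome 11, and their log2 ratios were 0.72 and 0.50. Within each pair the log2 ratios lay closer together than between the pairs, which is a description of 4 genes.

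**Figure D2:**
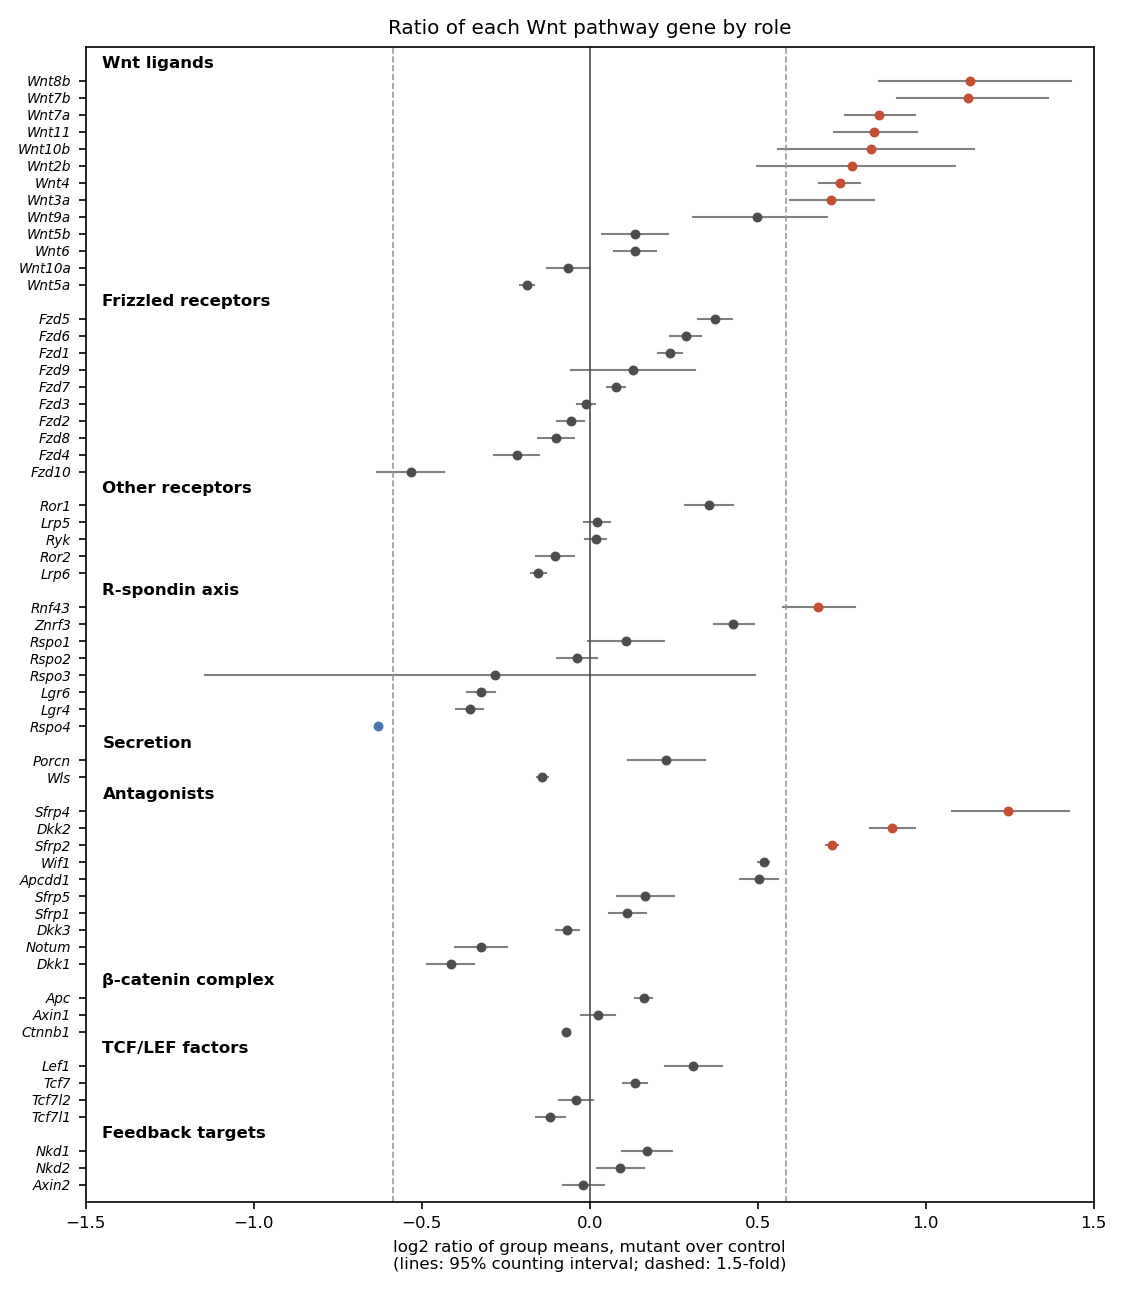
Log2 ratio of the mutant to the control group mean for each member, sorted within its role, with red for members higher and blue for members lower by over 1.5-fold, dashed lines at 1.5-fold and horizontal lines for the 95% counting interval. The 8 ligands in red lie between 0.72 and 1.13, whereas the β-catenin complex, the TCF/LEF factors and the feedback targets all lie between the dashed lines.

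Promoter sequences from RefSeq on GRCm38.p6 were at hand for 38 members, in 48 windows from 250 bases before to 50 bases after a start site. They were searched on both strands for the letters that TCF/LEF factors bind, CTTTG followed by AA, AT, TA or TT, which makes 4 forms that cannot overlap at 1 position. Such letters were found in 6 of the 48 windows (12.5%), against 16.9% of all 32851 windows. The member windows were rich in G and C, with a median of 67.3% against 52.7% over all windows. The 6 genes were *Dkk1*, *Fzd7*, *Lef1*, *Tcf7l2*, *Wnt5b* and *Wnt11*, and only *Wnt11* of these was past the fold. The stretches before the start site are shown for *Wnt4*, the most strongly expressed of the 8 higher ligands, for *Wnt11* and *Wnt5b*, 2 ligands that hold the letters and differ in their ratio, and for *Lef1*. They lie at chr4:137277385-137277488 (plus strand, ending where the first GENCODE exon begins), chr7:98834862-98835111 (plus strand), chr6:119449387-119449636 (minus strand) and chr3:131156044-131156293 (plus strand), the last 2 at start sites inside the GENCODE gene, each 5′ to 3′ with a match in capitals.
*Wnt4*: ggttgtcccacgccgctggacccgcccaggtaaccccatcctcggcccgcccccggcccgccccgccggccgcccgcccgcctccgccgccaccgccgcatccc
*Wnt11*: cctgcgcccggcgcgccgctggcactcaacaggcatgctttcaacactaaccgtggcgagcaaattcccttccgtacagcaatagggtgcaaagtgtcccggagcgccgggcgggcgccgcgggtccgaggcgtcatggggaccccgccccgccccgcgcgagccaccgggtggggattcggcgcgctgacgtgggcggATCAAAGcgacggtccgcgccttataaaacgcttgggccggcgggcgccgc
*Wnt5b*: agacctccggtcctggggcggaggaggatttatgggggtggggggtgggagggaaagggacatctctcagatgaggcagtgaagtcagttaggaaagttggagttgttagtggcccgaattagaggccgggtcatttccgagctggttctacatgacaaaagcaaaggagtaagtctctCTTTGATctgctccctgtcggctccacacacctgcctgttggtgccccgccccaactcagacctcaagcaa
*Lef1*: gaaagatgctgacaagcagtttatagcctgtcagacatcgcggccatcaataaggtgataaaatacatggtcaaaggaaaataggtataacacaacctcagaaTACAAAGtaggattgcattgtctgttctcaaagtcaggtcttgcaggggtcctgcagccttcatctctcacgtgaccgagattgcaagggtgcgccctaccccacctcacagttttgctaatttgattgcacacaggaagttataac
The match begins at -51 in *Wnt11*, at -71 in *Wnt5b* and at -147 in *Lef1*, counted from the start site. The ratio was 1.80 for *Wnt11* and 1.10 for *Wnt5b*, so these ligands shared the same form of the letters at unlike ratios. A match is a description of the letters and not a binding site.

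None of the 10 Frizzled receptors, the main receptors of Wnt ligands, passed the fold, and their median log2 ratio was 0.03. The highest level per kb was that of *Fzd7*, with control and mutant means of 183 and 193, followed by *Fzd1*, with means of 96.7 and 114. *Fzd7* made up 29.1% of the summed Frizzled level in the controls and 29.2% in the mutants. The ratios spread from *Fzd10*, with means of 16.2 and 11.2 and a log2 ratio of -0.53, to *Fzd5*, with means of 45.9 and 59.5 and a log2 ratio of 0.37. *Fzd3*, with means of 189 and 187, was nearly level, and *Fzd6* and *Fzd4* had ratios of 1.22 and 0.860. Summed per kb, the receptors stood at 139 in the controls and 146 in the mutants, a ratio of 1.05.

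The 5 co-receptors and other receptors also stayed within the fold, with log2 ratios from -0.15 to 0.36. *Ryk*, a receptor-like kinase without enzyme activity, had the highest level per kb, with means of 130 and 132. *Lrp6*, the co-receptor of the β-catenin branch, had control and mutant means of 254 and 229, and *Lrp5* had a ratio of 1.02. *Ror1* and *Ror2*, the kinases that serve Wnt5a, had ratios of 1.28 and 0.931. For ligand secretion, *Wls*, which carries Wnt proteins to the cell surface, had means of 543 and 493, and *Porcn*, which adds their lipid, had means of 9.69 and 11.3. Neither passed the fold.

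*Rspo4*, an R-spondin best known from nail formation, was the only member lower by over 1.5-fold. It lies on chromosome 2 from 151842927 to 151874668, and its mean was 1397 in the controls and 904 in the mutants, a ratio of 0.647 with a counting interval of 0.642 to 0.651. *Rspo4* made up 97.8% of the summed R-spondin level per kb in the controls and 96.7% in the mutants. *Rspo2* had means of 39.5 and 38.5 and *Rspo1* had means of 10.1 and 10.8. The other R-spondins had a summed ratio of 1.01, so the lower sum was that of *Rspo4*. When the group means were scaled to the same total over all genes, the log2 ratio of *Rspo4* was -0.57 in place of -0.63 and no longer past the fold.

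Among the receptors of R-spondins, *Lgr4* and *Lgr6* had ratios under 1 without passing the fold, and *Lgr5*, which is not a member, was under the filter with means of 0.266 and 0.379. *Lgr4* had control and mutant means of 93.5 and 73.0, a ratio of 0.781, and *Lgr6* had means of 86.4 and 69.0, a ratio of 0.799. The ubiquitin ligases that R-spondins remove had ratios over 1. *Rnf43* (chromosome 11, 87662722 to 87735539) had means of 9.58 and 15.4 and was higher with a ratio of 1.60, with a counting interval of 1.49 to 1.73, and *Znrf3* had means of 32.7 and 44.0 with a ratio of 1.35. Of the 7 genes of this axis with a mean of at least 1, 1 was higher and 1 was lower. This was 14.3% each way, against 4.14% and 1.91% of all genes, and rests on 1 gene in each direction.

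Among the 10 antagonists, 3 were higher (30%), none was lower and the median log2 ratio was 0.33. Of all genes with a mean of at least 1, 4.14% were higher and 1.91% lower. *Sfrp2*, a secreted protein that binds Wnt ligands (chromosome 3, 83766321 to 83774316), had a control mean of 366 and a mutant mean of 604, a ratio of 1.65. *Dkk2*, a Dickkopf protein that binds LRP5 and LRP6, had means of 22.3 and 41.7 and a ratio of 1.87. *Sfrp4* had means of 3.25 and 7.71 and a ratio of 2.37, with a counting interval of 2.11 to 2.69, the highest ratio of any member. The 3 genes thus stood at levels that differ widely, from the most to the least abundant of the antagonists per kb.

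*Wif1*, another ligand-binding inhibitor, had the second highest level of the antagonists per kb of exon, with control and mutant means of 401 and 574 and a ratio of 1.43. *Sfrp2* and *Wif1* dominated the summed level of the antagonists, which was 422 per kb in the controls and 606 in the mutants, a ratio of 1.44. Without both genes the ratio was 1.03. *Apcdd1*, a membrane inhibitor, had a ratio of 1.42, whereas *Dkk1* and *Notum*, an enzyme that removes the lipid of Wnt proteins, had ratios of 0.751 and 0.799. *Dkk3*, *Sfrp1* and *Sfrp5* had log2 ratios from -0.07 to 0.17. *Notum*, *Fzd5* and *Sfrp2* share 29.4%, 17.8% and 16.1% of their exon bases with genes of the opposite strand in the table (*Notumos*, *Gm38058* and *Gm26771*), and since counting by strand is not given in the sources used here, these values are uncertain. The same holds to a smaller extent for *Wnt7b*, which shares 6.61% of its exon bases with *AU022754*, and for *Ctnnb1*, *Lef1*, *Rspo3*, *Wnt11*, *Wnt5a*, *Tcf7l1*, *Axin2* and *Fzd6*, which share from 14.6% down to 3.15% with genes of the opposite strand.

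**Figure D3:**
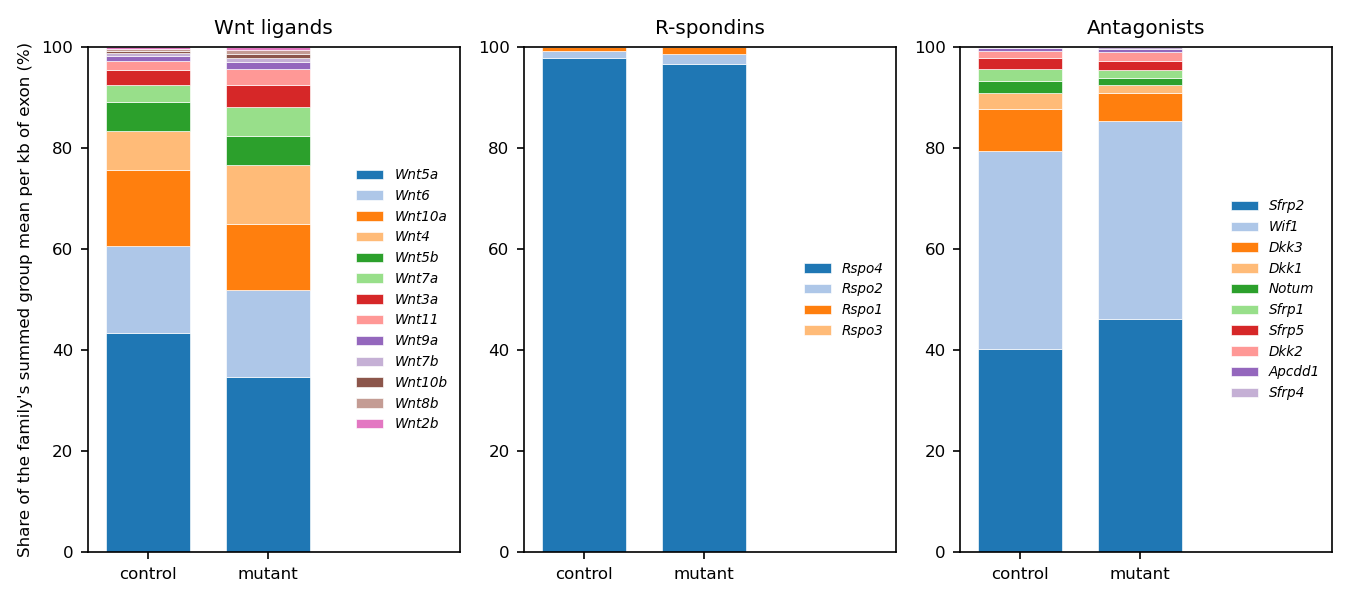
Share of each gene in the summed group mean per kb of exon of its family, in percent, for the Wnt ligands, the R-spondins and the antagonists in controls and mutants. The *Wnt5a* segment is 43.5% of the control bar and 34.8% of the mutant bar, and *Rspo4* fills over 96% of both R-spondin bars.

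The genes inside the cell stayed within the fold. *Ctnnb1*, which encodes β-catenin, had control and mutant means of 1423 and 1355, a ratio of 0.952. *Apc* and *Axin1*, scaffolds of the complex that marks β-catenin for breakdown, had ratios of 1.12 and 1.02. Among the transcription factors, *Tcf7* had the highest level per kb, with means of 99.4 and 109, and *Tcf7l1* and *Tcf7l2* had ratios of 0.922 and 0.972. *Lef1*, both a partner of β-catenin and a target of the pathway, had means of 17.2 and 21.3, a ratio of 1.24 with a counting interval of 1.17 to 1.31.

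*Axin2*, the most widely used readout of β-catenin signaling (chromosome 11, 108920349 to 108950783), had nearly equal control and mutant means of 35.8 and 35.4. Its ratio was 0.987 with a counting interval of 0.946 to 1.03, and its log2 ratio moved from -0.02 to 0.04 when the group means were scaled to the same total. *Nkd1* and *Nkd2*, inhibitors that the pathway switches on in the same cells, had ratios of 1.13 and 1.06. Set side by side, 8 of 13 ligands were past the fold and none of the 3 feedback targets was, a difference that was not tested. With 4.14% of all genes higher, 3 genes are too few to show whether targets followed the ligands. Target genes are also counted under other headings. *Lef1* had a ratio of 1.24, and 2 of 9 widely used target genes were higher (22.2%) and none was lower. Of these 9, 7 had a ratio over 1 and 2 a ratio under 1, namely *Ccn4* (0.883) and *Sox9* (0.839).

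The wider pathway was read from a list of 76 other genes, of which 74 were matched in the table and 71 had a mean of at least 1. Of these, 3 were higher (4.23%) and 2 were lower (2.82%), shares near the 4.14% and 1.91% of all genes, with a median log2 ratio of -0.00214. None of the 19 genes of the cytoplasmic pathway, such as the Dishevelled, GSK3 and casein kinase genes, passed the fold, and their log2 ratios lay between -0.22 and 0.04. None of the 14 nuclear cofactors and repressors did either. Among 13 modulators outside the cell, *Sost*, the LRP inhibitor of bone, had control and mutant means of 7.81 and 3.69, and *Ndp*, a Frizzled ligand outside the Wnt family, had means of 2.84 and 1.29, and both were lower by over 1.5-fold. Among 16 genes of planar polarity and of the branch without β-catenin, *Celsr2* was higher, with means of 28.1 and 47.0. Of 9 widely used target genes, *Tnfrsf19* and *Cd44* were higher, with ratios of 1.58 and 1.61.

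Markers of dental epithelium differed between the same groups. Of 15 listed markers, 13 were higher in the mutants and none was lower, with a median log2 ratio of 1.22. Their summed level was 1716 in the controls and 10514 in the mutants. Most of the difference between these sums lay in enamel matrix genes, namely *Amelx*, *Ambn* (617 and 3360) and *Enam* (136 and 1983). *Krt5*, a keratin of basal epithelium, had means of 154 and 359, and *Amelx*, an enamel matrix gene, had means of 362 and 3946. No epithelial marker was at or under the value of 3 reads per library in either group. The 8 ligands and 3 antagonists past the fold were higher in the same group as these markers, and the part of epithelial RNA in the Wnt values was not tested. In whole tissue, more cells of a type and more RNA per cell cannot be told apart.

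Markers of most other cell types had medians nearer to 0 or below it. The 7 endothelial markers had a median log2 ratio of 0.05, the 8 markers of macrophages and osteoclasts one of 0.16, and the 6 pericyte and smooth muscle markers one of -0.20. The 4 Schwann cell markers had a median of 0.17, the 4 odontoblast markers one of -0.49, and of 3 skeletal muscle markers 1 was higher and 2 were lower. All 4 erythroid markers with a mean of at least 1 were lower, and the summed control mean of the list was 63.7 and its summed mutant mean 22.1. Of the 13 mesenchymal markers with a mean of at least 1, 1 was higher and 2 were lower, among them *Gli1*, with means of 106 and 46.1. Only the mutants carry the *Gli1-CreER* driver, and its part in the *Gli1* difference was not tested. The part of the marker differences in the Wnt values was not tested.

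**Figure D4:**
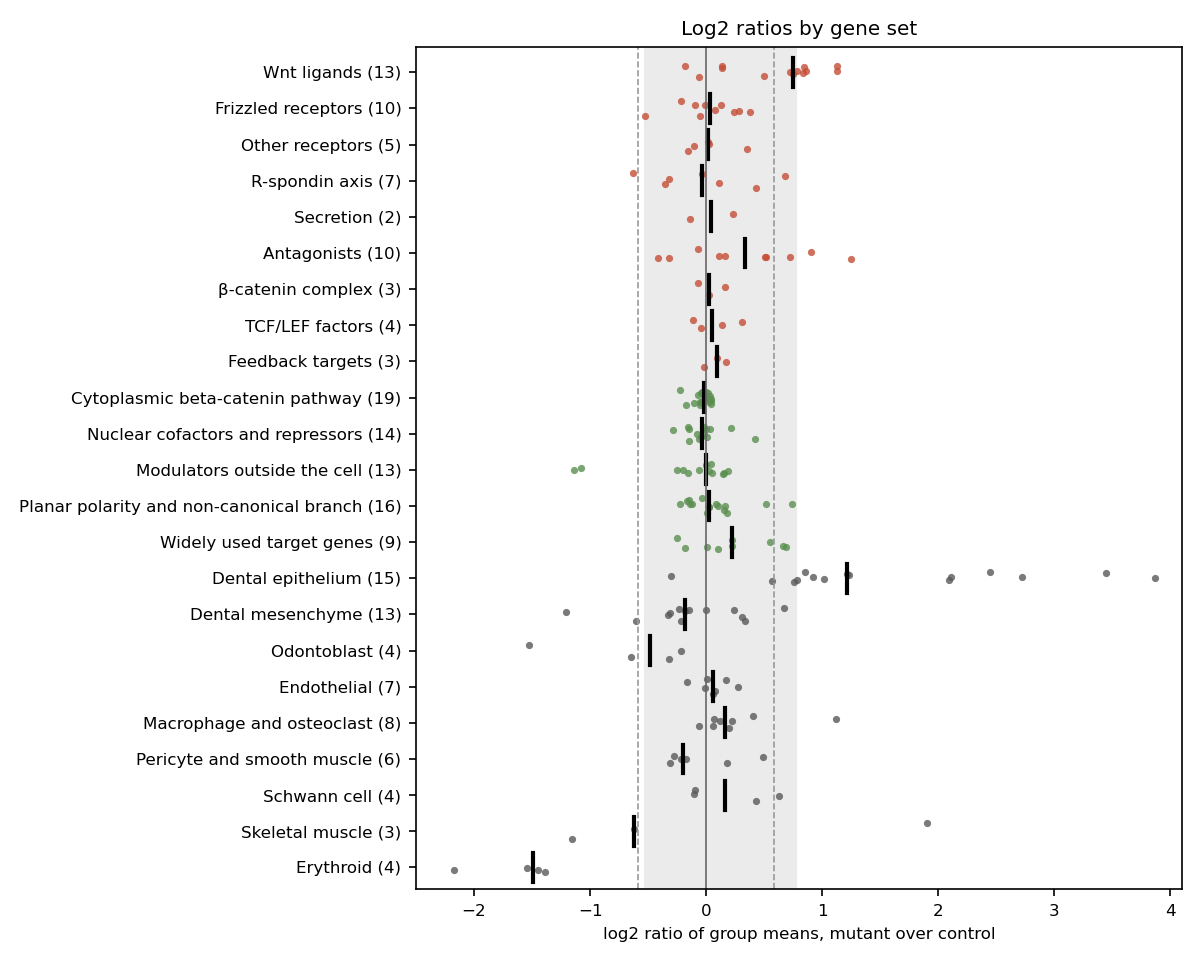
Log2 ratio of the mutant to the control group mean for genes with a mean of at least 1, by set, with Wnt pathway roles in red, other pathway genes in green and cell type markers in grey. The black bars are medians, the dashed lines mark 1.5-fold, and the shaded band holds the central 95% of all genes, from -0.53 to 0.77. The ligand median of 0.74 lies within the band near its upper edge, and the epithelial median of 1.22 lies above it.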

How the data were processed

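The authors ran trimming, alignment to mm10 and the comparison with Partek Flow. The submitters' processing notes name TopHat2 2.0.8, and the counting tool and annotation are not given in the sources used here. The deposited table holds a normalized signal per gene, averaged by the authors over the 3 libraries of a group, and 4 columns of their own comparison (p-value, FDR, ratio and fold change), which were not used. A deposited summary gives the lowest signal, mean and upper quartile of each library, and 5 other columns of it were not used. Upper quartiles lay between 44.57 and 44.58. The lowest signal of a library was taken as 0 reads plus an offset of 1, so estimated reads are an inference.

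Ratios of group means and counts past 1.5-fold were computed here over genes with a mean over both groups of at least 1. No test across mice was made, because the table gives group means. Counting intervals are exact (Clopper-Pearson) on the estimated reads. Levels per kb use merged exon length from GENCODE vM21. The fold calls and counting intervals were tested on simulated reads with planted folds. These reads held counting error only and no spread between mice, so the test says nothing about that spread. Members and lists were chosen with earlier results of these data known, and 1 listed gene is not reported here. Members were named where past the fold, among the highest 2 of their role per kb, or as *Wnt4*, *Axin2* or *Lef1*, and others after their values were seen. Alternatives were other folds, filters, scalings and removal of the offset. Tools were Python 3.11.15, pandas 2.3.3, scipy 1.17.1, numpy 2.4.6 and, for figures, matplotlib 3.10.9.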

Additional observations from a re-analysis of the deposited data

How the results depend on the processing

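The count was 12 members higher and 1 lower without a filter, after centring on the median of all genes and after removal of the offset. Of all genes, 7.37% were higher and 5.80% lower without a filter. The shares were 4.12% and 1.93% after centring, and 4.20% and 1.93% without the offset. With a fold of only 25% over 1, 18 of 57 were higher and 6 lower, against 9.10% and 7.12% of all genes, and at a fold of 2, 3 were higher and 0 lower, against 1.46% and 0.536%. With a mean of at least 10, 5 of 48 members were higher, 2 of them ligands, and 1 was lower, against 2.15% and 0.912% of all genes. Scaling to the same total, an alternative chosen after seeing the data, shifted all log2 ratios by 0.0606 upwards. It left 12 members higher and 0 lower, against 4.81% and 1.59% of all genes. The median log2 ratio of the members of 0.13 was 0.12 without a filter, 0.0512 with a mean of at least 10, 0.12 after centring and 0.19 after scaling to the same total, and the mean in its place was 0.21. Of the 30 members named by the rule, 1 changed sign under any scaling, *Axin2*. No paired analysis was possible because only group means per gene were analysed here, and for the same reason leaving out a replicate was not run. Depth limits *Rspo3*, with a counting interval of 0.453 to 1.41.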
